A study of Homo sapiens with 9 samples.

Results

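Axon guidance ligands and receptors are the secreted and membrane proteins that steer growing axons and migrating neural crest cells. The genes described here were chosen by name: protein-coding genes of the semaphorin (SEMA3 to SEMA7), plexin, neuropilin, ephrin, Eph receptor, SLIT, ROBO, netrin, UNC5 and DCC families. By this rule 68 genes were found among 57757 gene IDs, of which 19240 were protein-coding. The rule uses names only, no measured value, but it was set with earlier results of these data known. They comprised 7 class 3 semaphorins, 13 membrane semaphorins, 2 neuropilins, 9 plexins, 3 slits, 4 roundabout receptors, 3 netrins, 5 netrin receptors, 8 ephrins and 14 Eph receptors.

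The cells were NLF, an established human neuroblastoma line of neural crest origin, labelled as wild type (WT) and grown in RPMI medium with serum. All 9 libraries came from cells exposed to siRNA for 48 h, in 3 groups of 3 biological replicates. The siNTC group received a non-targeting control siRNA, the siTBX2 group an siRNA against TBX2, a T-box transcription factor, and the siTBX2-AS1 group an siRNA against TBX2-AS1, a long non-coding RNA of the same locus. The series concerns regulatory networks of long non-coding RNAs in childhood cancers, and these libraries ask which transcripts differ after either knockdown. A single cell line was used, so the replicates measure the spread between treatments of that line.

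Class 3 semaphorins are secreted and act through a neuropilin, which binds the ligand, and a plexin, which signals. Membrane semaphorins mostly bind plexins directly. Slits bind roundabout receptors, netrins bind DCC and the UNC5 receptors, and ephrins, which are anchored in the membrane, bind Eph receptor tyrosine kinases and can signal in both directions. In the neural crest lineage, from which neuroblastoma arises, these systems guide cell streams and the growth of sympathetic axons.

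The libraries held 31894280 to 51434090 estimated counts each. TBX2 was measured at 260 ± 14.1 CPM (CPM, counts scaled to a common library size with TMM factors; SD, n = 3) in siNTC and at 117 ± 9.31 CPM in siTBX2, which is 44.9% of the control. It was at 209 ± 30.5 CPM in siTBX2-AS1, and that difference did not pass the test (adjusted p = 0.172). TBX2-AS1 was at 36.3 ± 2.01 CPM in siNTC, 35.6 ± 3.59 CPM in siTBX2 and 3.77 ± 2.71 CPM in siTBX2-AS1. Of 12 adrenergic neuroblastoma markers, 8 averaged over 10 CPM, while TH, the first enzyme of catecholamine synthesis, had no count and DBH, CHGA and CHGB stayed at or below 2.94 CPM. All 6 fibroblast markers were expressed, with a summed level of 1031 to 1309 CPM in siNTC, 981 to 1327 CPM in siTBX2 and 1036 to 1440 CPM in siTBX2-AS1. These sums came mostly from COL3A1, at 707 to 993 CPM in siNTC, and hide markers that went different ways. LUM was at 127 to 128 CPM in siNTC and 73.9 to 92.0 CPM in siTBX2, while COL1A1 was at 76.8 to 96.8 CPM in siNTC and 111 to 152 CPM in siTBX2-AS1. The summed level of 6 endothelial markers was 0.905 to 1.09 CPM in siNTC, 1.53 to 2.63 CPM in siTBX2 and 0.557 to 0.657 CPM in siTBX2-AS1, with CDH5, KDR, TEK and CLDN5 at or near 0. Melanocyte markers summed to 12.8 to 14.3 CPM in siNTC, 16.4 to 24.9 CPM in siTBX2 and 15.6 to 23.1 CPM in siTBX2-AS1, mostly from MITF, with TYR and MLANA at 0. Schwann, leukocyte and epithelial sums were at or below 3.92 CPM in every library. The part of any of these markers in the results below was not tested, and in bulk RNA fewer cells of a type and less RNA per cell cannot be told apart.

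Guidance genes changed in a small number of places. After TBX2 knockdown the secreted ligands SEMA3D and SLIT3 and the membrane ligand EFNB2 fell to between 41.5% and 48.2% of control. After TBX2-AS1 knockdown the receptor PLXNA2 rose to 151% of control, and no guidance gene was called as lower in the fit by group alone. With the replicate number added to the fit as a block, 3 were called as lower: SEMA3C, PLXNC1 and NRP1. When the knockdowns were compared with each other, EFNB2, SLIT3, SEMA3D, PLXNA2, EPHA7 and SEMA4B were higher in siTBX2-AS1 in the fit by group alone. The block added PLXNA4 and ROBO2 as higher there, and EPHA2, NRP1 and UNC5B as lower. A call here means an adjusted p under 0.05 (edgeR quasi-likelihood test, Benjamini-Hochberg over all 18367 genes that passed the filter on low counts). SEs are on the log2 scale.

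Of the 68 genes, 56 passed the filter. Among them 0 rose and 3 fell after TBX2 knockdown, where 0.795% of all tested genes rose and 0.811% fell. DESeq2 called 1 that rose and 5 that fell. Its share over all tested genes was not computed, so the DESeq2 counts in this report cannot be read against the edgeR shares. After TBX2-AS1 knockdown 1 rose and 0 fell, where 1.79% of all tested genes rose and 2.78% fell, and DESeq2 called 2 and 2. In the comparison of siTBX2-AS1 with siTBX2, 6 were higher and 0 lower, where 2.03% of all tested genes were higher and 3.5% lower, and DESeq2 likewise called 6 and 0. At an unadjusted p under 0.05 in the edgeR fit, 14 of the 56 (25.0%) differed after TBX2 knockdown against 16.0% of all tested genes. The corresponding counts were 10 (17.9%) against 18.4% after TBX2-AS1 knockdown and 18 (32.1%) against 20.1% between the knockdowns. The median log2 fold change of the 56 was -0.01, 0.01 and 0.02 in the 3 comparisons, and that of all tested genes was 0.00, 0.01 and 0.01. Both knockdowns were compared with the same siNTC libraries, so those comparisons are not independent, and the comparison between the knockdowns was used to test whether they differed.

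Same-numbered siNTC and knockdown libraries deviated together, and a fit with the replicate number as a block called more of these genes. After TBX2 knockdown the block gave 1 that rose and 5 that fell (10.7% of the 56, against 4.75% of all tested genes). After TBX2-AS1 knockdown it gave 4 that rose and 3 that fell (12.5%, against 9.48% of all tested genes). Between the knockdowns it gave 8 that were higher and 3 that were lower in siTBX2-AS1 (19.6%), so the called genes there went in both directions. The block share of all tested genes was not computed for that comparison. The genes added by the block against siNTC are given with their families, and those added between the knockdowns at the end of the report.

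The other 12 genes did not pass the filter and are accounted for by their totals over the 9 libraries. EPHA1 had 0 counts, which allows up to 3 counts in a library by counting error alone. ROBO4 had 2 counts, EPHA3 and DCC 6 each, UNC5A 8, SLIT1 28, EPHB1 30, UNC5D 32, EPHA10 34, EFNA1 64, NTN1 69 and EPHA4 84. DCC, the attractive netrin receptor, and NTN1, the main netrin ligand, were thus near the limit of detection in all groups.

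Per length, the netrin receptor UNC5C was the highest of the 68 genes in siNTC, at 40.3 ± 3.68 FPKM (fragments scaled by transcript length and library depth, as deposited; SD, n = 3). SLIT3 followed at 38.4 ± 4.28, then PLXNB2 at 28.0 ± 8.29, SEMA3A at 21.6 ± 1.90, ROBO1 at 19.6 ± 0.965 and NRP1 at 19.4 ± 8.81 FPKM. On this scale UNC5C and SLIT3 did not differ beyond their spread, nor did SEMA3A, ROBO1 and NRP1. By CPM per kilobase of exon UNC5C was at 50.9 and SLIT3 at 22.2, below PLXNB2, EPHA7, ROBO1 and EPHB4, so the place of SLIT3 depends on the scale. EPHB4 was at 16.8 ± 1.85, NRP2 at 15.0 ± 3.37, EPHA7 at 13.1 ± 0.321, SEMA3D at 12.2 ± 1.97, PLXNA1 at 10.5 ± 0.871 and EFNA5 at 9.56 ± 1.65 FPKM. Ligands and receptors of the slit and semaphorin systems and of the ephrin and Eph system were thus among the 12 highest, and of the netrin system a receptor only. SLIT3 and SEMA3D, which fell after TBX2 knockdown, were within these 12.

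**Figure D1:**
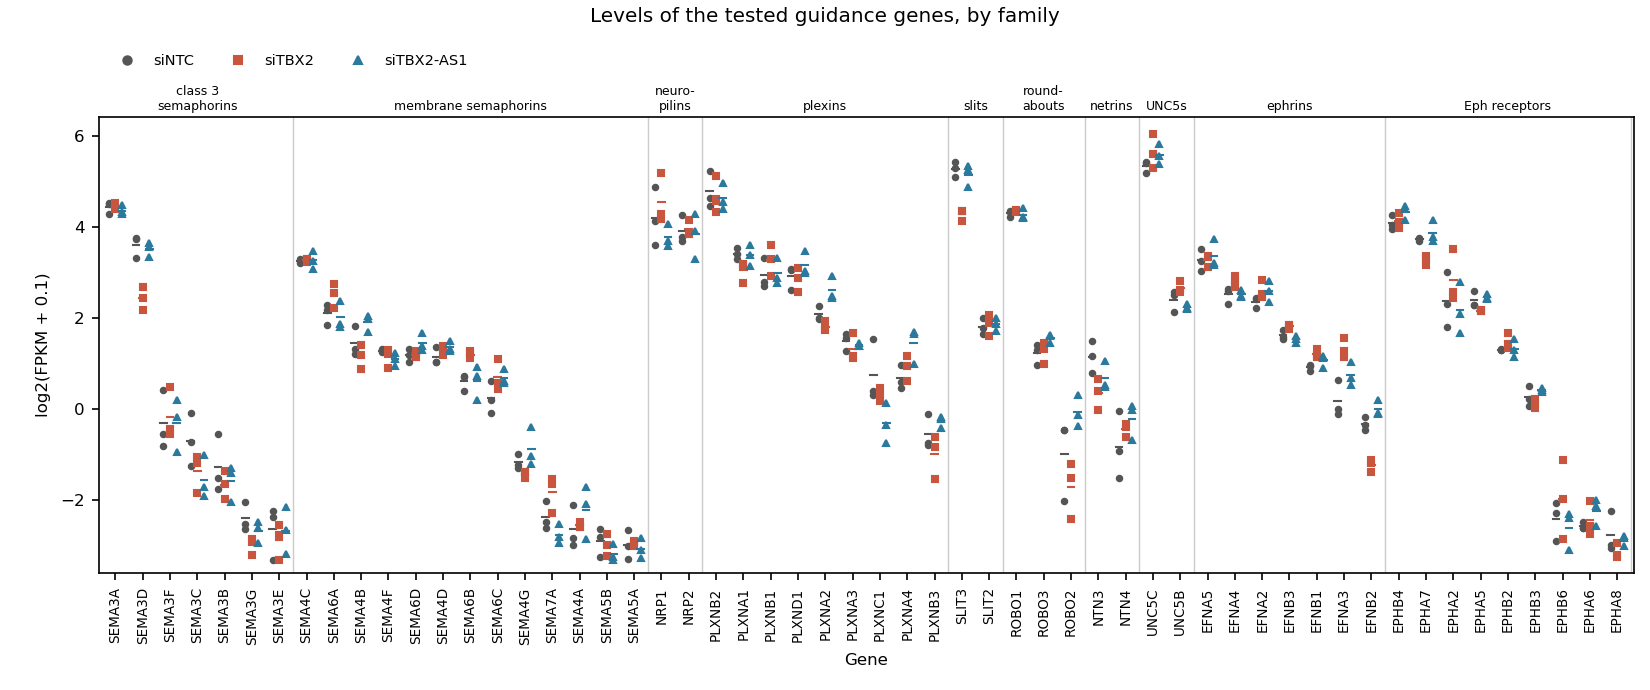
Levels of the 56 tested guidance genes as log2(FPKM + 0.1), grouped by family and ordered within a family by the siNTC mean. Each point is 1 library, coloured by group, and dashes are group means; the siTBX2 points of SEMA3D, SLIT3 and EFNB2 lie below the other groups.

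The promoters of the 3 genes that fell in siTBX2 and of PLXNA2 are shown because these members carry the calls against siNTC. Each is the RefSeq window from 250 bases before to 50 after an annotated start (GRCh38.p14), written 5′ to 3′ on the gene's strand, and RefSeq windows were matched for 58 of the 68 genes. Capitals mark the T-box half-site GGTGTGA or its reverse complement TCACACC, and the GC box GGGCGG or its reverse complement CCGCCC, searched on both strands and these motifs do not overlap each other. All 4 genes lie on the minus strand, at chr7:85187007-85187306 for SEMA3D, chr5:169301090-169301389 for SLIT3, chr13:106535613-106535912 for EFNB2 and chr1:208244335-208244634 for PLXNA2.
SEMA3D: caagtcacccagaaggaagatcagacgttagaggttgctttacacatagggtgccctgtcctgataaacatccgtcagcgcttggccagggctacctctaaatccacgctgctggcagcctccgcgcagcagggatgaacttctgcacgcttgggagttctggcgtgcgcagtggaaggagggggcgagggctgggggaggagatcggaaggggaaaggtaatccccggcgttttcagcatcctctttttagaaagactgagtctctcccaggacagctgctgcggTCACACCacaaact
SLIT3: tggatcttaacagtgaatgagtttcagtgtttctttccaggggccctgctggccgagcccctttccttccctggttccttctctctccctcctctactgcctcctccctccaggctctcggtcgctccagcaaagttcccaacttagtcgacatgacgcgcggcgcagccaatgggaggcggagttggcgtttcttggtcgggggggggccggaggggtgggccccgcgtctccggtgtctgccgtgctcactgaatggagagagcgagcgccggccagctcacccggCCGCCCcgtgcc
EFNB2: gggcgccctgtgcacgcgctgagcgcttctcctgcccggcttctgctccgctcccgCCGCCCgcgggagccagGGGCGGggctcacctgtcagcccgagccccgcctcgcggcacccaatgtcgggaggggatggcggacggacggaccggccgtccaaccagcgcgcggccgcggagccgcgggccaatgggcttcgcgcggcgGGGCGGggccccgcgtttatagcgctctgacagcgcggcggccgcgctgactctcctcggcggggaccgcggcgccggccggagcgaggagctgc
PLXNA2: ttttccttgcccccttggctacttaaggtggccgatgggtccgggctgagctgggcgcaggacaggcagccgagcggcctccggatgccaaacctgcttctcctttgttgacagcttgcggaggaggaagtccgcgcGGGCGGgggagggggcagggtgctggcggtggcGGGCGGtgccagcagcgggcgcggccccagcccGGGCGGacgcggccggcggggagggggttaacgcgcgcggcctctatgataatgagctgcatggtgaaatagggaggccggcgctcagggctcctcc

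The T-box half-site occurred in the window of SEMA3D, beginning at base 37 after the start, and in that of no other matched guidance gene. It was present in 3.45% of all 35116 promoter windows. The GC box occurred 3 times in EFNB2, 3 times in PLXNA2, 1 time in SLIT3 and 0 times in SEMA3D. It was present in 45.0% of all windows and in 72.2% of the 90 windows of guidance genes. The E-box CACGTG was in 7.26% of all windows and in none of these 4. A match describes the letters of the window and shows no binding.

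SEMA3D, a secreted semaphorin that repels axons and endothelial cells, fell after TBX2 knockdown. It was measured at 119.5, 116 and 98.1 CPM in the siNTC libraries 1 to 3, at 33.6, 56.8 and 48.0 CPM in siTBX2 and at 83.3, 115 and 113 CPM in siTBX2-AS1. All siTBX2 libraries lay below all others, and the siNTC and siTBX2-AS1 libraries overlapped. The decrease was 1.27 on the log2 scale (fell by 1.27, SE 0.20, adjusted p = 0.0262), to 41.5% of control. Between the knockdowns SEMA3D was 1.17 higher on the log2 scale in siTBX2-AS1 (SE 0.20, adjusted p = 0.0133), and against siNTC the TBX2-AS1 knockdown gave -0.10 (95% interval -0.55 to 0.35). The call after TBX2 knockdown held in 14 of 20 alternatives. It was lost without any one of siNTC 1, 2 or 3 or siTBX2 1 or 3 (adjusted p from 0.0581 to 0.0924) and in the fit of only the 2 groups (adjusted p = 0.0721; range over all alternatives 4.7e-07 to 0.0924). The call between the knockdowns was lost without siTBX2-AS1 3 (adjusted p = 0.0507, against 2.5e-06 to 0.0507 over all alternatives).

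The other class 3 semaphorins did not pass the edgeR test without the block in any comparison. SEMA3A, the best known axon repellent of the class, was at 167 to 181 CPM in siNTC, 162 to 168 CPM in siTBX2 and 159 to 175 CPM in siTBX2-AS1. These ranges overlapped, and the log2 difference was -0.06 (95% interval -0.21 to 0.08) in siTBX2 and -0.04 (-0.18 to 0.11) in siTBX2-AS1. SEMA3C, which guides neural crest cells into the cardiac outflow tract, was at 6.32, 3.64 and 2.51 CPM in siNTC, 2.50, 2.72 and 1.38 CPM in siTBX2 and 2.14, 1.39 and 1.49 CPM in siTBX2-AS1. All siTBX2-AS1 libraries lay below all siNTC libraries, with a log2 difference of -1.31 (SE 0.39, adjusted p = 0.105) that passed with the replicate block (-1.24, adjusted p = 0.0355). SEMA3G was at 0.549, 0.464 and 1.11 CPM in siNTC and at 0.0637, 0.311 and 0.263 CPM in siTBX2, a log2 difference of -1.73 (SE 0.61, adjusted p = 0.211) on few counts. SEMA3E had no count in siNTC 3 and siTBX2 3, and its interval after TBX2 knockdown ran from -3.92 to 2.43. Estimates for all 7 class 3 genes were below 0 against siNTC in either knockdown, with medians of -0.74 and -0.43, and these medians share their controls. The first median is the estimate of SEMA3E itself (SE 1.39), and with the replicate block SEMA3E in siTBX2-AS1 was at 0.17.

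**Figure D2:**
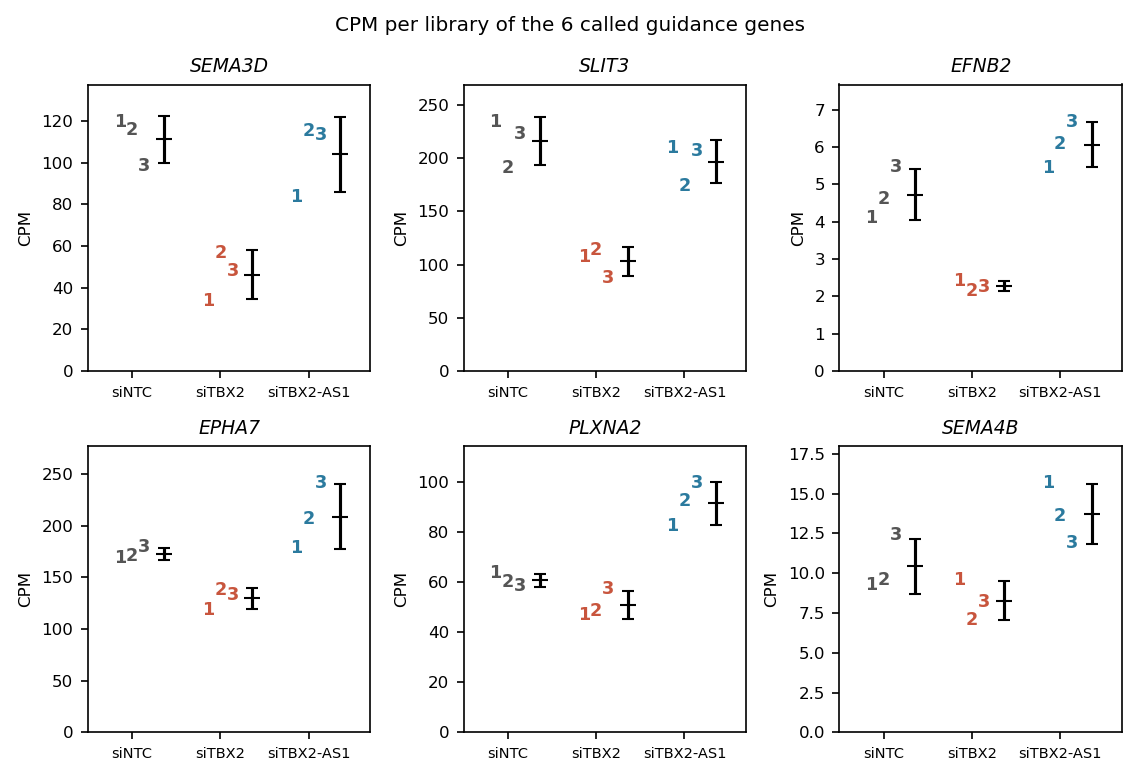
CPM in each of the 9 libraries for the 6 guidance genes called in at least 1 comparison, with the digit giving the replicate number and the bar the mean ± SD (n = 3). SEMA3D, SLIT3 and EFNB2 are low in all 3 siTBX2 libraries, and PLXNA2 is high in all 3 siTBX2-AS1 libraries.

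Membrane semaphorins did not pass the test against siNTC in either knockdown, and 1 of 13 differed between the knockdowns. SEMA4B, a class 4 transmembrane semaphorin, was at 9.26, 9.58 and 12.4 CPM in siNTC, 9.55, 7.07 and 8.22 CPM in siTBX2 and 15.6, 13.6 and 11.9 CPM in siTBX2-AS1. The siTBX2 and siTBX2-AS1 libraries did not overlap, while siNTC 3 lay within the siTBX2-AS1 range. The difference between the knockdowns was 0.73 (SE 0.17, adjusted p = 0.0479). It passed in 8 of 20 alternatives and, of the 9 fits with 1 library left out, in the one without siNTC 3; the adjusted p ran from 0.0042 to 0.155.

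SEMA6D, a ligand and receptor for plexin A1, was at 16.7, 20.1 and 20.4 CPM in siNTC, 18.2, 18.6 and 19.6 CPM in siTBX2 and 20.7, 22.9 and 25.5 CPM in siTBX2-AS1. Its siTBX2-AS1 libraries lay above the rest, with log2 differences of 0.27 (adjusted p = 0.271) from siNTC and 0.29 (adjusted p = 0.216) from siTBX2. SEMA6A, which binds plexins A2 and A4, was at 62.6, 72.2 and 59.1 CPM in siTBX2 and 39.5, 37.2 and 56.9 CPM in siTBX2-AS1, a difference of -0.54 (SE 0.23, adjusted p = 0.229). SEMA4G had its 3 siTBX2-AS1 libraries, at 1.80 to 2.83 CPM, above the siTBX2 libraries at 1.36 to 1.61 CPM (adjusted p = 0.153). SEMA4G overlaps MRPL43, on the opposite strand at a mean of 33.4 CPM, so its reads are uncertain where strand was not used in counting. SEMA4C, the highest membrane semaphorin per length at 9.39 ± 0.241 FPKM in siNTC, showed log2 differences of 0.00 in both knockdowns (95% interval -0.23 to 0.23 in each).

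Among the plexins, the signalling receptors of semaphorins, PLXNA2 rose after TBX2-AS1 knockdown. It was at 63.4, 59.9 and 58.4 CPM in siNTC, 46.8, 48.5 and 57.2 CPM in siTBX2 and 82.3, 92.4 and 99.3 CPM in siTBX2-AS1. The 3 groups did not overlap, with siTBX2 lowest and siTBX2-AS1 highest. The increase over siNTC was 0.59 (SE 0.10, adjusted p = 0.0171), and the difference between the knockdowns was 0.85 (SE 0.11, adjusted p = 0.00331). The difference between siTBX2 and siNTC was -0.25 (SE 0.10, adjusted p = 0.281). The call between the knockdowns held in all 20 alternatives. That against siNTC held in 14, and was lost in both FPKM fits and without any one of siNTC 2, siNTC 3, siTBX2-AS1 2 or siTBX2-AS1 3 (adjusted p over all alternatives from 8.5e-05 to 0.175).

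PLXNA4, a co-receptor for class 3 and class 6 semaphorins, was at 29.8, 25.0 and 30.3 CPM in siNTC, 38.6, 29.8 and 31.9 CPM in siTBX2 and 53.7, 35.7 and 60.5 CPM in siTBX2-AS1. All siTBX2-AS1 libraries lay above all siNTC libraries, by 0.82 on the log2 scale (SE 0.20, adjusted p = 0.0537), and the difference passed with the replicate block (0.79, adjusted p = 0.0191). PLXNC1, the receptor of SEMA7A, was at 7.91, 5.92 and 4.57 CPM in siNTC, 4.31, 4.13 and 3.90 CPM in siTBX2 and 3.15, 3.62 and 1.99 CPM in siTBX2-AS1. No group overlapped another. The log2 difference of siTBX2-AS1 from siNTC was -1.07 (SE 0.26, adjusted p = 0.0588), and it passed with the block (-1.07, adjusted p = 0.0244). That of siTBX2 from siNTC was -0.58 (SE 0.26, adjusted p = 0.319). PLXNC1 overlaps CEP83, on the opposite strand at a mean of 35.4 CPM, and has the same limit. PLXNB3 was at 2.32, 2.32 and 2.76 CPM in siNTC and 1.10, 1.86 and 1.60 CPM in siTBX2 (-0.70, SE 0.23, adjusted p = 0.193). The other 5 plexins, PLXNA1, PLXNA3, PLXNB1, PLXNB2 and PLXND1, had log2 differences from siNTC of -0.11 to 0.31 over both knockdowns.

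The neuropilins, which bind class 3 semaphorins and VEGF, did not pass the test without the block. NRP1 was at 169.7, 127 and 89.4 CPM in siNTC, 198, 139 and 125 CPM in siTBX2 and 115, 96.3 and 74.3 CPM in siTBX2-AS1. Replicate for replicate, siTBX2-AS1 was the lowest and siTBX2 the highest. With the replicate block NRP1 fell by 0.41 on the log2 scale after TBX2-AS1 knockdown (adjusted p = 0.0358); without it the difference was -0.43 (SE 0.27, adjusted p = 0.462). NRP2 was at 92.7, 68.2 and 61.7 CPM in siNTC, 85.0, 73.1 and 63.4 CPM in siTBX2 and 94.7, 66.6 and 61.3 CPM in siTBX2-AS1, with log2 differences of -0.01 (95% interval -0.48 to 0.47) and 0.00 (-0.47 to 0.47).

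SLIT3, a secreted repellent of commissural axons and a ligand of roundabout receptors, fell after TBX2 knockdown. It was at 234, 191 and 223 CPM in siNTC, 107, 114 and 87.7 CPM in siTBX2 and 209.6, 174 and 207 CPM in siTBX2-AS1. Every siTBX2 library lay below every other library, and siNTC and siTBX2-AS1 overlapped. The decrease was to 47.7% of control (fell by 1.07 on the log2 scale, SE 0.13, adjusted p = 0.0104). Between the knockdowns SLIT3 was 0.93 higher in siTBX2-AS1 (SE 0.13, adjusted p = 0.00472), and the TBX2-AS1 knockdown differed from siNTC by -0.13 (95% interval -0.42 to 0.15). Both calls held in all 20 alternatives.

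SLIT2, the other slit above the filter, was at 32.0, 38.6 and 32.5 CPM in siNTC, 31.9, 41.8 and 27.4 CPM in siTBX2 and 34.3, 34.0 and 35.2 CPM in siTBX2-AS1. The groups overlapped, with log2 differences of -0.03 (95% interval -0.38 to 0.32) and 0.01 (-0.34 to 0.36). Of the slit receptors, ROBO1 was at 167 to 194 CPM in siNTC, 196 to 209 CPM in siTBX2 and 176 to 199.5 CPM in siTBX2-AS1 (log2 differences 0.16 and 0.02). ROBO2 was at 6.04, 6.29 and 2.44 CPM in siNTC, 4.82, 3.99 and 1.43 CPM in siTBX2 and 10.2, 9.41 and 5.53 CPM in siTBX2-AS1. Its siTBX2-AS1 libraries lay above the siTBX2 libraries (95% interval of the log2 difference 0.15 to 2.45, adjusted p = 0.19). Against siNTC, siTBX2-AS1 gave 0.77 (SE 0.50, adjusted p = 0.484), and with the block ROBO2 rose by 0.84 (adjusted p = 0.0429). ROBO3 gave -0.07 and 0.17, and neither passed.

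**Figure D3:**
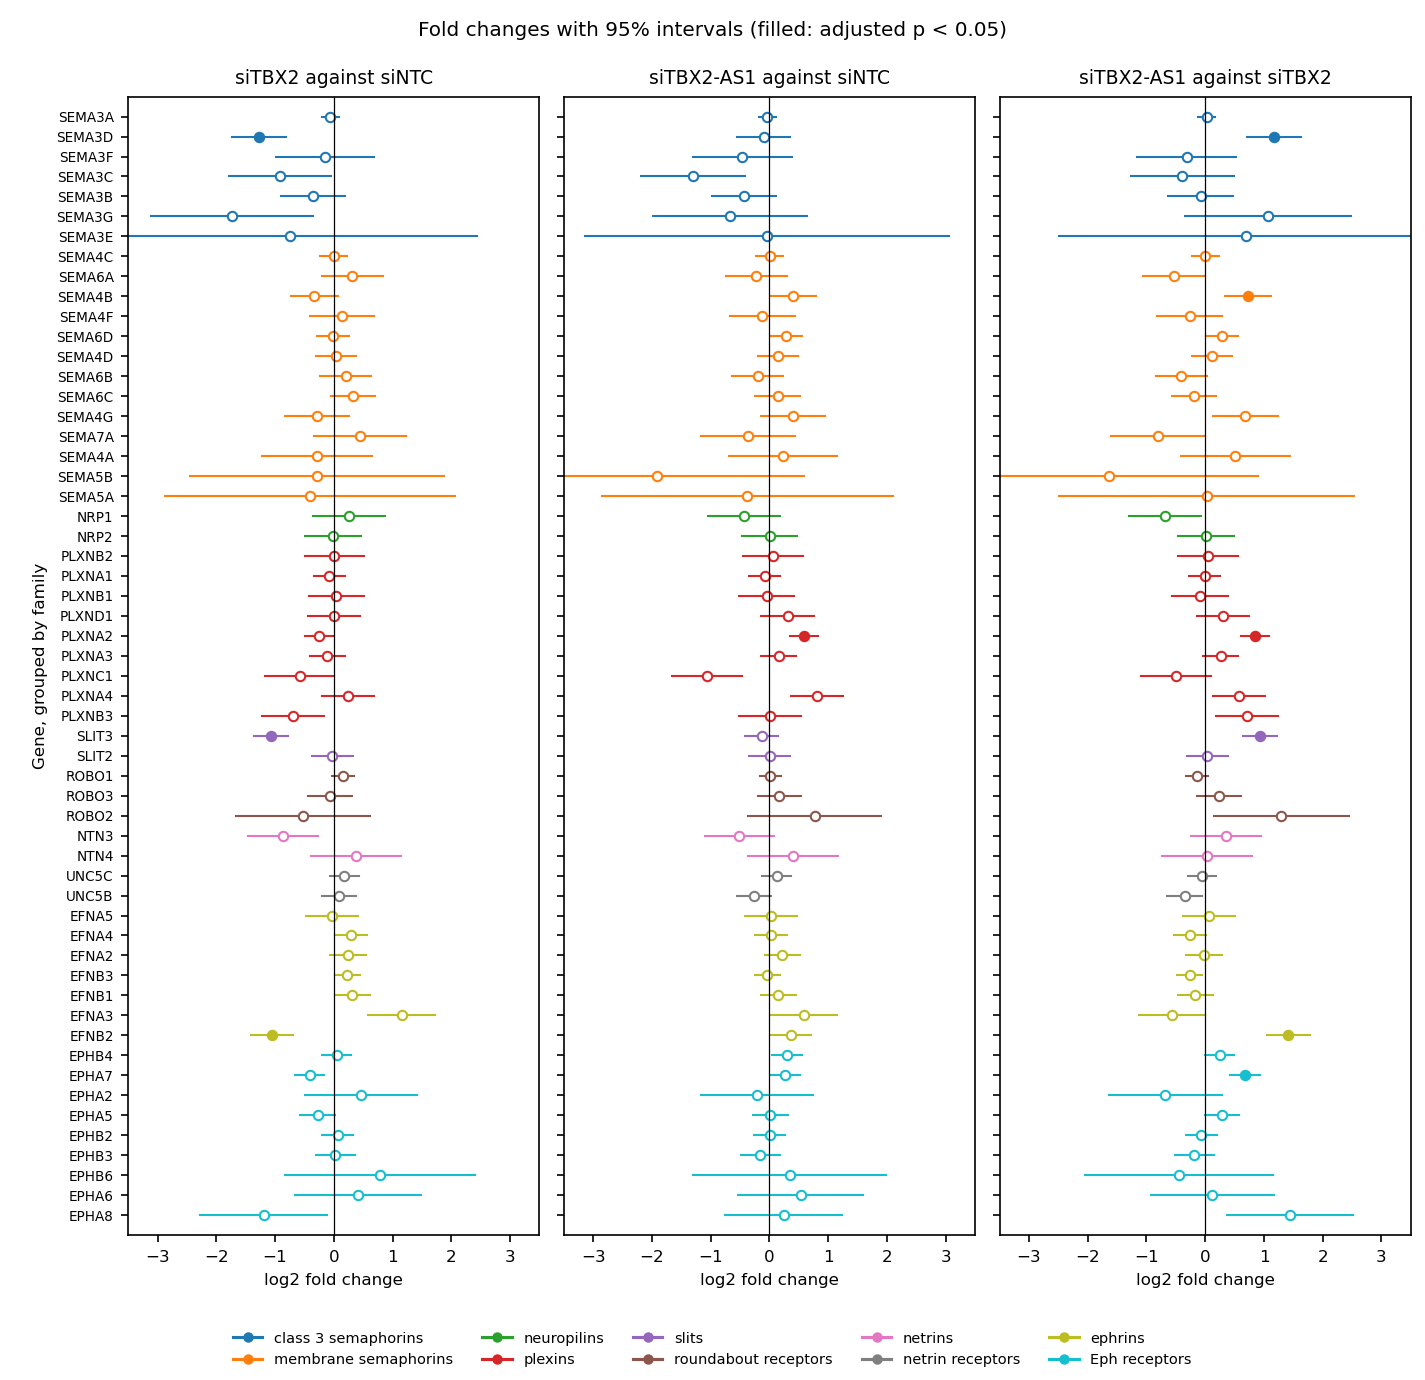
Log2 fold changes of the 56 tested guidance genes in the 3 comparisons, with 95% intervals from the edgeR fit, coloured by family; filled points passed at an adjusted p under 0.05, and intervals are drawn only to 3.5 on either side. Filled points are SEMA3D, SLIT3 and EFNB2 on the left, PLXNA2 in the middle and 6 genes on the right, all above 0.

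In the netrin system no gene passed in the edgeR fit without the block. NTN3, a netrin related to NTN1, was at 6.20, 4.87 and 8.24 CPM in siNTC, 2.61, 3.75 and 4.28 CPM in siTBX2 and 3.82, 4.18 and 5.56 CPM in siTBX2-AS1. The siTBX2 libraries lay below the siNTC libraries, by -0.86 (SE 0.26, adjusted p = 0.151), and the difference passed with the block (-0.86, adjusted p = 0.0491) and with DESeq2 (adjusted p = 0.0334; range over all alternatives 0.0334 to 0.350). UNC5C, a repulsive netrin receptor, was at 545, 589.8 and 498 CPM in siNTC, 654, 666 and 526 CPM in siTBX2 and 629.6, 607 and 541 CPM in siTBX2-AS1. These overlapped, with log2 differences of 0.18 (95% interval -0.07 to 0.42) and 0.12 (-0.12 to 0.37). UNC5B was at 76.3, 83.6 and 89.7 CPM in siTBX2 and 56.9, 70.7 and 68.0 CPM in siTBX2-AS1, which did not overlap (-0.35, SE 0.13, adjusted p = 0.166).

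EFNB2, a transmembrane ephrin known for its part in arteries and in neural crest guidance, fell after TBX2 knockdown. It was at 4.10, 4.62 and 5.45 CPM in siNTC, 2.42, 2.15 and 2.26 CPM in siTBX2 and 5.45, 6.07 and 6.67 CPM in siTBX2-AS1. The siTBX2 libraries lay below all others, and siNTC 3 lay just above the lowest siTBX2-AS1 library. The decrease was to 48.2% of control (fell by 1.05 on the log2 scale, SE 0.16, adjusted p = 0.0235). Between the knockdowns EFNB2 was 1.41 higher in siTBX2-AS1 (SE 0.16, adjusted p = 0.00226), the largest difference among the 6 called genes, and this call held in all 20 alternatives. Against siNTC the TBX2-AS1 knockdown gave 0.36 (95% interval 0.00 to 0.71, adjusted p = 0.266). The call after TBX2 knockdown held in 11 of 20 alternatives. It was lost in both FPKM fits, in the fit of only the 2 groups, and without any one siNTC or siTBX2 library (adjusted p from 0.0514 to 0.0849 for those libraries, and from 2.9e-06 to 0.101 over all alternatives).

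The level of EFNB2 was low per length, at 0.698 ± 0.0794 FPKM in siNTC. EFNA3, anchored to the membrane by a lipid, was at 2.00, 3.27 and 1.90 CPM in siNTC, 5.96, 5.38 and 4.67 CPM in siTBX2 and 3.34, 4.40 and 3.01 CPM in siTBX2-AS1. All siTBX2 libraries lay above all others, by 1.16 over siNTC (SE 0.25, adjusted p = 0.0647), and the difference passed with the block (1.20, adjusted p = 0.0252). EFNA4, EFNB1 and EFNB3 each had 3 siTBX2 libraries above their siNTC libraries, with log2 differences of 0.29, 0.32 and 0.23 and adjusted p of 0.285, 0.279 and 0.274. None passed, and the share of all tested genes without overlap was not computed, so no shared increase of ephrins is read from this. EFNB3 was at 14.6, 13.1 and 13.2 CPM in siNTC, 15.9, 16.4 and 15.7 CPM in siTBX2 and 13.3 CPM in each siTBX2-AS1 library. EFNA2 and EFNA5 overlapped between all groups.

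EPHA7, an Eph receptor of the developing forebrain and nerve cord, differed between the knockdowns. It was at 169, 170.1 and 179 CPM in siNTC, 118.5, 138 and 133 CPM in siTBX2 and 178, 206 and 241 CPM in siTBX2-AS1. The siTBX2 libraries lay below all others, and siNTC 3 lay within the siTBX2-AS1 range. The difference of siTBX2-AS1 from siTBX2 was 0.68 (SE 0.11, adjusted p = 0.0103), a call that held in 18 of 20 alternatives and was lost in both FPKM fits (adjusted p over all alternatives from 7.3e-06 to 0.0558). Against siNTC the TBX2 knockdown gave -0.41 (SE 0.11, adjusted p = 0.114), which passed with the block (-0.42, adjusted p = 0.0453), and the TBX2-AS1 knockdown gave 0.27 (adjusted p = 0.236).

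EPHB4, a receptor of EFNB2, was at 86.4, 92.9 and 111 CPM in siNTC, 97.7, 92.7 and 109.5 CPM in siTBX2 and 119.6, 110.5 and 126 CPM in siTBX2-AS1. The siTBX2-AS1 libraries lay above the siTBX2 libraries, and siNTC 3 lay within the siTBX2-AS1 range. The log2 difference of siTBX2-AS1 from siNTC was 0.29 (SE 0.11, adjusted p = 0.197), and EPHB4 rose by 0.30 with the block (adjusted p = 0.0466). EPHA2 was at 18.5, 26.6 and 47.6 CPM in siNTC, 30.7, 34.5 and 62.8 CPM in siTBX2 and 23.5, 19.0 and 37.4 CPM in siTBX2-AS1. In each group the library numbered 3 was the highest. EPHA8 was at 0.0849, 0.0956 and 0.219 CPM in siTBX2 and 0.309, 0.481 and 0.310 CPM in siTBX2-AS1, on few counts (1.44, SE 0.47, adjusted p = 0.122). EPHA5, EPHA6, EPHB2, EPHB3 and EPHB6 passed in no comparison.

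Several receptors took a similar order of replicate numbers in each group. NRP2 was highest in the library numbered 1 and lowest in that numbered 3 in each group. ROBO2 was lowest in number 3 in each group, and NRP1 was highest in number 1 in each group. EPHA2 was highest in number 3 in each group. What the numbers stand for beyond biological replicates is not stated by the labels.

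**Figure D4:**
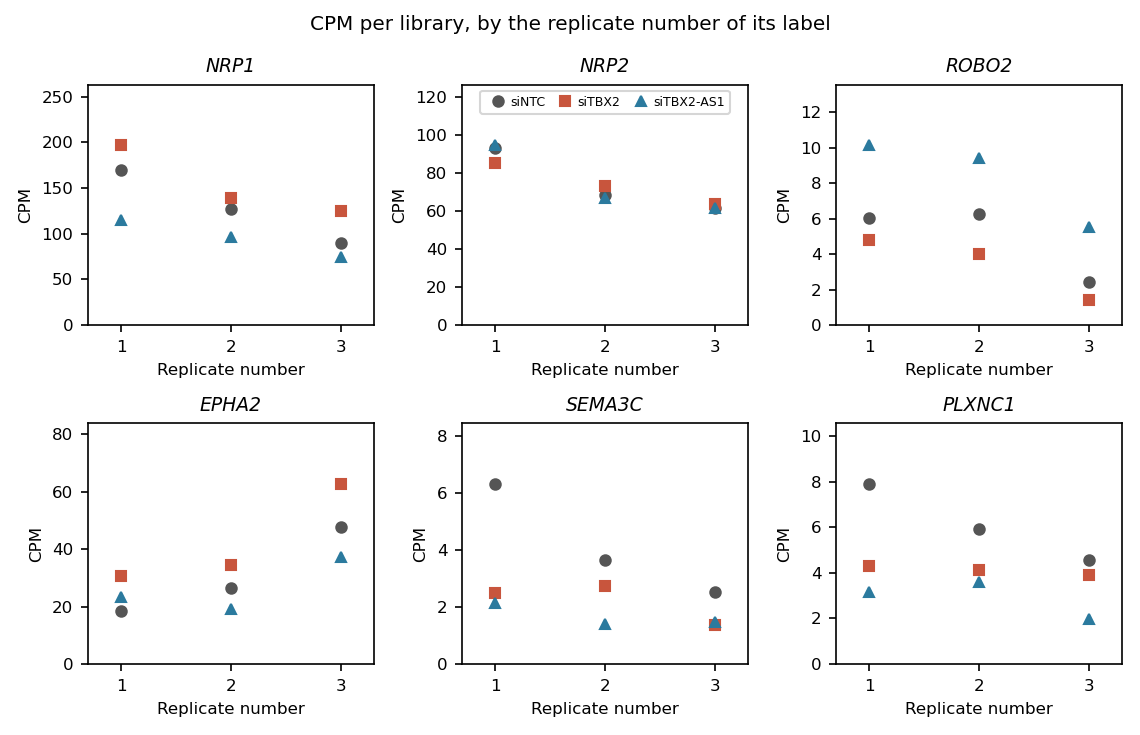
CPM of 6 guidance genes in each library against the replicate number of its label, with 1 marker per library and group. NRP1, NRP2 and ROBO2 have their lowest library at number 3 and EPHA2 its highest in every group, while SEMA3C and PLXNC1 in siTBX2-AS1 lie below siNTC at each number.

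Other genes of the guidance pathways were taken from 3 lists of known members. Of 29 tested other guidance ligands and receptors, 0 rose and 0 fell after TBX2 knockdown in the edgeR fit, where 7 had an unadjusted p under 0.05 (16.0% of all tested genes had) and DESeq2 called 2. In that list 1 rose and 0 fell after TBX2-AS1 knockdown, where 1.79% of all tested genes rose and 2.78% fell. It was RTN4, the myelin inhibitor Nogo (rose by 0.37, SE 0.07, adjusted p = 0.0237), and DESeq2 called 4 that rose and 1 that fell. Between the knockdowns CNTN1, an adhesion molecule of axons, was lower in siTBX2-AS1, at 52.4, 80.6 and 69.8 CPM against 135.5, 174 and 174 CPM (-1.25, SE 0.24, adjusted p = 0.0216). FZD3, a Wnt receptor needed for axon tracts, was also lower there (-0.42, SE 0.10, adjusted p = 0.0398). In all, 0 of the list were higher and 2 lower, where 2.03% of all tested genes were higher and 3.5% lower. DESeq2 called 5 higher and 2 lower between the knockdowns, and no direction of the list is read from so few calls. With the block 8 were called, a count that has no block share of all tested genes to be read against. The median log2 fold changes of this list were 0.03, 0.07 and 0.09 in the order siTBX2, siTBX2-AS1 and the comparison between them.

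Of 61 tested intracellular effectors of guidance receptors, 2 rose and 0 fell after TBX2 knockdown, with a median of -0.01, where 0.795% of all tested genes rose and 0.811% fell. FYN, a kinase downstream of plexin A and Eph receptors, was at 53.5, 57.4 and 58.3 CPM in siNTC, 88.8, 98.5 and 96.8 CPM in siTBX2 and 71.3, 75.2 and 80.1 CPM in siTBX2-AS1. The 3 groups did not overlap, and FYN rose in both knockdowns (0.75, SE 0.08, adjusted p = 0.00849, and 0.42, SE 0.08, adjusted p = 0.0225). DPYSL3, a collapsin response mediator that acts on the cytoskeleton below semaphorin receptors, was at 116, 129 and 118 CPM in siNTC, 220.01, 212.5 and 234 CPM in siTBX2 and 275, 249.5 and 162 CPM in siTBX2-AS1. It rose in both (0.88, SE 0.17, adjusted p = 0.0465, and 0.92, SE 0.17, adjusted p = 0.0201).

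After TBX2-AS1 knockdown 4 of the 61 effectors rose and 2 fell, with a median of 0.08, where 1.79% of all tested genes rose and 2.78% fell. TRIM67, a ligase that binds DCC, was at 1.26, 1.62 and 1.34 CPM in siNTC and 7.51, 6.05 and 4.04 CPM in siTBX2-AS1 (2.06, SE 0.26, adjusted p = 0.00467). FARP2, an exchange factor that binds plexin A1, rose by 0.29 (adjusted p = 0.0441). The kinase ABL2 fell by 0.58 (SE 0.10, adjusted p = 0.0128) and DPYSL5 fell by 0.60 (SE 0.10, adjusted p = 0.0125). Between the knockdowns 2 were higher in siTBX2-AS1, TRIM67 and the exchange factor TRIO, and 3 were lower, ABL2, DPYSL5 and the small GTPase RAC1, with a median of 0.06, where 2.03% of all tested genes were higher and 3.5% lower. Of 23 tested proteases and proteoglycans, 1 fell and 0 rose in each knockdown, beside the same shares of all tested genes as above, with medians of 0.05 in both and of -0.06 between them. This was ADAM12, a membrane metalloprotease (fell by 1.21, SE 0.21, adjusted p = 0.033 in siTBX2, and fell by 1.49, SE 0.21, adjusted p = 0.00696 in siTBX2-AS1), and 0 differed between the knockdowns in the edgeR fit, where 3 had an unadjusted p under 0.05 (20.1% of all tested genes had) and DESeq2 called 1. With the replicate block, the lists together had 7 called genes in siTBX2 and 19 in siTBX2-AS1, against 3 and 8 without it, while 4.75% and 9.48% of all tested genes were called with the block.

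Words of 7 bases complementary to the first bases of an siRNA strand can mark transcripts it binds besides its target. No label gives the siRNA sequences. The words CAGAATG and TTAAACT were noted in an earlier analysis of these data, so their presence supports nothing, and they are shown for the genes whose values they stand beside. In the longest annotated 3′ UTR (GENCODE release 29), CAGAATG occurred in 10 of 55 searched guidance genes (18.2%) and in 17.4% of 13039 searched tested genes, while TTAAACT occurred in 8 of 55 (14.5%) and in 20.4%. Capitals mark the word on the transcript strand, and positions count from the first base of the 3′ UTR.
SEMA3D, base 723: tacagggaCAGAATGcttaataa
SEMA3D, base 3301: tgattttcTTAAACTtaaatgtt
SEMA3C, base 447: gcatatgaCAGAATGgctatcaa
SEMA3C, base 1582: ttcactatTTAAACTatgataaa
SEMA3C, base 1760: aggtataaTTAAACTtcttttct
PLXNA2, base 4581: gtggcaggCAGAATGgaaatact

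The 10 genes with CAGAATG were EPHA5, EPHB2, PLXNA2, PLXNA3, PLXNA4, SEMA3C, SEMA3D, SEMA4A, SEMA6D and UNC5C. Their median log2 fold change after TBX2 knockdown was -0.18, with values from -1.27 to 0.24. That of the searched guidance genes without the word was 0.00. Their 3′ UTRs were also longer, with a median of 4776 bases against 1493. The 8 genes with TTAAACT had a median of -0.16 after TBX2-AS1 knockdown, against 0.02 without it, and a median 3′ UTR of 3781 bases. Their values ran from -1.31 to 0.27. The words came from an earlier analysis of these data, so neither pair of medians tests an effect of an siRNA. Sites were printed only for SEMA3D, SEMA3C and PLXNA2, and holders that hardly fell or rose, such as SEMA3A (-0.04) and UNC5C (0.18), have sites too. SLIT3, EFNB2 and EPHA7 held neither word in the 3′ UTR searched.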

How the data were processed

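RNA of 9 NLF libraries was sequenced after extraction with the miRNeasy kit and library preparation with a stranded TruSeq kit and Ribo-Zero, per the labels' protocols. The authors deposited 1 table of estimated counts per gene and 1 of FPKM. FastQC, STAR 2.4.2a, StringTie 1.3.3 and build hg19 are named, per the submitters' processing notes. For the annotation, the counting program and the use of strand, the source is not given in the sources used here. As a check, the count to FPKM ratio, scaled between libraries, was constant within 0.02 log2 for 75.4% of 417 genes with 1 transcript and for 21.8% of 9597 genes with several, so the deposited counts were treated as estimated counts.

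Symbols were matched to 52286 of 57757 gene IDs. The genes and lists were chosen with earlier results of these data known. All 9 libraries were fitted together in edgeR 4.0.16 (TMM, filterByExpr, robust quasi-likelihood test) with R 4.3.3, and p-values were Benjamini-Hochberg adjusted over all 18367 tested genes. The fit was tested on simulated data. Named genes were those called in any comparison, those with an unadjusted p under 0.05 and no overlap between groups, the 12 with the highest siNTC FPKM, those that failed the filter, and called genes of the 3 pathway lists, with at most 6 per list and comparison; others illustrate a family or the replicate number and were chosen after their values were seen. Gene models and 3′ UTRs (of at least 50 bases) came from GENCODE 29 and promoters from RefSeq, both on GRCh38, and were joined by gene ID or symbol only.

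Replicate numbers were taken as pairing a knockdown with siNTC because deviations from the group means correlated over 0.1 in every pair (r = 0.136 to 0.241 for siTBX2 and 0.104 to 0.243 for siTBX2-AS1, against -0.219 to 0.0238 for different numbers). Alternatives used DESeq2 1.42.0, limma 3.58.1, other scalings and filters, FPKM with a pseudocount of 0.1 or 1, the replicate block and each library left out. CPM are TMM-scaled. Intervals cover the fitted spread between libraries.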

Additional observations from a re-analysis of the deposited data

How the results depend on the processing

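Alternatives were recomputed for 33 pairs of a guidance gene and a comparison, those called or with an unadjusted p under 0.05 and no overlap. Of their values 601 stayed on their side of the threshold, 36 were no longer past it and 20 newly passed it. None turned direction, but the pairs were picked by these same values, so that was largely set by the choice and shows no stability. Outside these pairs signs could turn. The block turned that of SEMA3E in siTBX2-AS1 (to 0.17) and, between the knockdowns, those of SEMA5A (0.03 to -0.17) and NTN4 (0.02 to -0.01). It also turned values within 0.01 of 0 for NRP2, SEMA4C and EPHB2. Other settings moved the numbers of called guidance genes, and the cause was not tested. After TBX2 knockdown the count of 3 became 6 with DESeq2, 6 with the replicate block and 1 in a fit of the 2 groups alone, and leaving out 1 library at a time gave 1 to 3. It was 1 without siNTC 1, siNTC 3, siTBX2 1 or siTBX2 3. After TBX2-AS1 knockdown the count of 1 became 3 with a filter of 1 CPM in 3 libraries, 4 with DESeq2, 7 with the replicate block and 0 on FPKM with either pseudocount, and 0 to 1 with 1 library left out; it was 0 without siNTC 2, siNTC 3 or siTBX2-AS1 3. Between the knockdowns the count of 6 became 11 with the replicate block (8 higher and 3 lower in siTBX2-AS1), and 4 to 6 with 1 library left out. There, same-numbered libraries correlated at 0.0728 to 0.219. That was above the -0.219 to 0.0238 for different numbers, but not over 0.1 in every pair. Numbers taken as pairing each knockdown with siNTC would pair these libraries too, and the fit without the block leaves that pairing out. The block changed no other call of the named guidance genes than those given in the report and, between the knockdowns, those of 5 genes. Of these, EPHA2 (adjusted p = 0.0486), NRP1 (0.00735) and UNC5B (0.0467) were lower in siTBX2-AS1 in the edgeR fit with the block. PLXNA4 (0.0455) and ROBO2 (0.00896) were higher.

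Over the 3 pathway lists, the 3 calls after TBX2 knockdown became 1 with no filter, 6 with DESeq2, 1 on FPKM with either pseudocount, 7 with the replicate block and 1 to 2 with 1 library left out (1 without any siNTC or siTBX2 library or siTBX2-AS1 2). The 8 after TBX2-AS1 knockdown became 17 with DESeq2, 3 on FPKM, 5 in a fit of the 2 groups, 19 with the block and 4 to 8 with 1 library left out (4 or 5 without any siNTC or siTBX2-AS1 library). The 7 between the knockdowns became 17 with DESeq2, 3 on FPKM, 17 with the block and 1 to 6 with 1 library left out, with 3 or 4 without any siTBX2 library or siTBX2-AS1 2 or 3 and 1 without siTBX2-AS1 1. When CPM was divided by exon length, 10 of the 12 highest guidance genes were shared with the FPKM order. SEMA3E, SEMA3G, SEMA4A, SEMA5A, SEMA5B, EPHA6, EPHA8 and EPHB6 averaged under 1 CPM in siNTC and had wide intervals. SEMA4A, at 0.199 CPM, is also among the genes with CAGAATG. The block lowered the SE after TBX2 knockdown from 1.39 to 0.63 for SEMA3E and from 1.08 to 0.35 for SEMA5A.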
